A study of Mus musculus with 6 samples.

Results

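The VEGF family of the mouse was followed here through 10 genes in blood endothelial cells sorted from the intestine: 5 ligand genes (Vegfa, Vegfb, Vegfc, Vegfd and Pgf), 3 receptor genes (Kdr, Flt1 and Flt4) and 2 neuropilin genes (Nrp1 and Nrp2). They were taken by gene symbol from 22184 genes with a probe set of their own, and each of the 10 had exactly 1 probe set annotated to it alone. The study compared 3 arrays from knockout mice (Apc fl/fl; Villin-CreERT2) with 3 from control mice (labelled WT, Apc fl/fl, with no Cre named), all on a mixed C57BL/6 x 129 background. Both groups had floxed Apc and both received subcutaneous tamoxifen daily for 5 days, with the intestine taken on day 6; the labels used here state no age. The villin promoter drives the inducible Cre in intestinal epithelium, so that Apc, a negative regulator of Wnt signalling, is deleted in the epithelium and not in the cells measured. Those were collagenase-released, live CD31+ cells without CD45, EpCAM or gp38, and their RNA was amplified before hybridisation to Affymetrix Mouse Gene 2.0 ST arrays.

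VEGF ligands are secreted dimers that bind receptor tyrosine kinases on endothelial cells. VEGF-A acts mainly through the receptor encoded by Kdr (VEGFR2), which drives sprouting, proliferation and permeability, while the product of Flt1 (VEGFR1) binds VEGF-A, VEGF-B and placental growth factor and holds much of the VEGF-A away from VEGFR2. VEGF-C and VEGF-D bind the product of Flt4 (VEGFR3), a receptor of lymphatic endothelium that is also made by fenestrated and sprouting blood capillaries, and neuropilins are co-receptors for both VEGFs and class 3 semaphorins. In the gut much of the VEGF-A is made by epithelial and stromal cells, whose own samples were not analysed here. The ligand values below are those of the sorted fraction, which also held some RNA of such cells.

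Values are log2 expression, 1 unit being a doubling, and ± after a group mean is the SD over 3 arrays. A change is the knockout mean minus the control mean, followed by its standard error, and a gene is said to have risen or fallen only where its adjusted p from limma was under 0.05. All 60 values of the 10 genes lay above the background level of 4.12, which was set from receptor genes of smell and taste, so all 10 members were among the 15288 genes tested. Only Flt4 passed, 1 of 10 members, where 2.61% of all genes passed in either direction, and no member fell, where 1.48% of all genes did. An unadjusted p under 0.05 was found for 4 of the 10, Flt4, Kdr, Flt1 and Vegfb, and for 16.4% of all genes. The groups did not overlap for 4 members, Flt4, Kdr and Flt1 being higher in the knockout and Vegfb lower, where 22.1% of all genes did not overlap. The median change of the 10 members was 0.11, beside -0.017 over all genes tested.

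**Figure D1:**
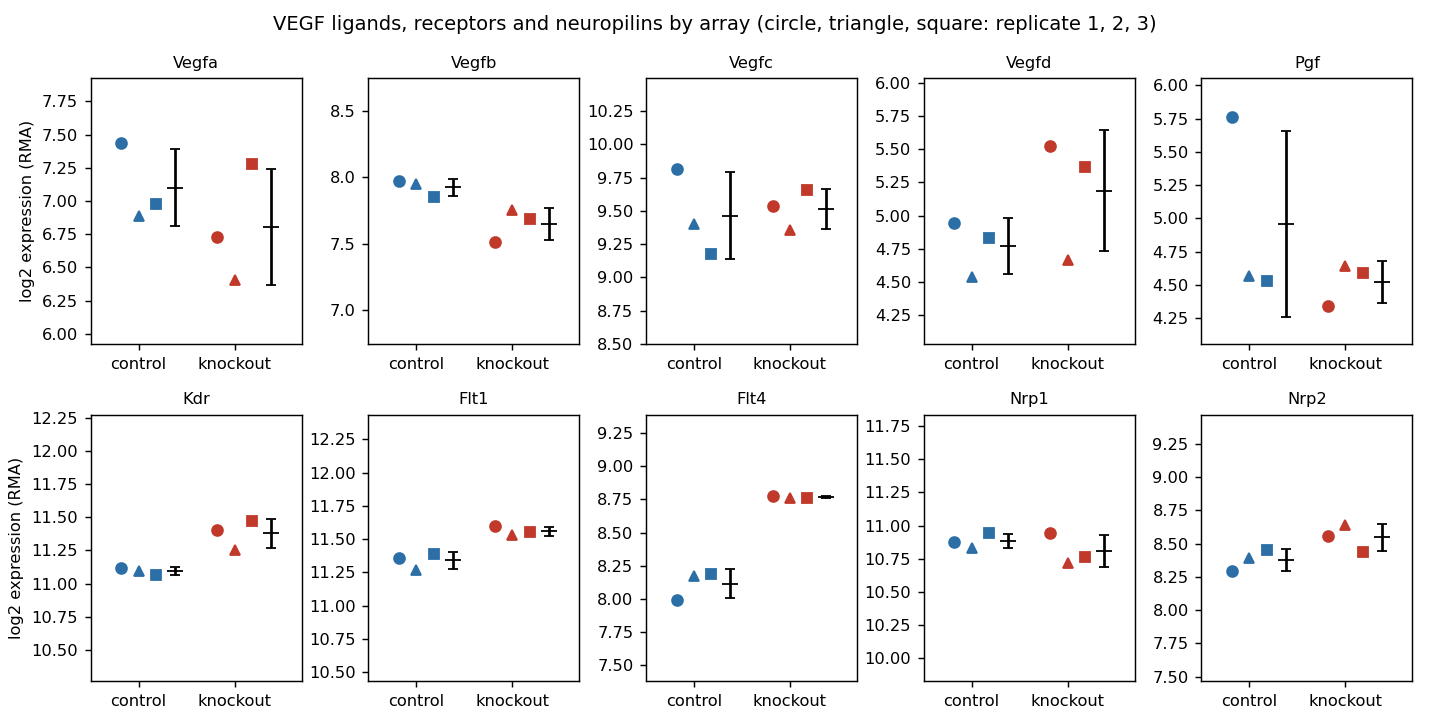
Log2 expression of the 10 VEGF family genes on each array, controls in blue and knockouts in red, with the group mean and SD beside the points; every vertical axis spans the same number of log2 units. The 3 knockout arrays lie together at 8.76 to 8.77 for Flt4, above controls at 7.99 to 8.18, while Pgf has 1 control array apart at 5.76.

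Endothelial identity of the sorted cells was checked on markers outside the family. All 18 pan-endothelial markers were above background, and their mean lay between 10.41 and 10.51 on the knockout arrays and between 10.47 and 10.57 on the control arrays, Cdh5 (endothelial cadherin) and Eng being the brightest. Of the 18, 1 rose, 1 fell and 7 had an unadjusted p under 0.05. Over all genes tested, 1.13% rose, 1.48% fell and 16.4% had an unadjusted p under 0.05. Eng, a TGF-beta co-receptor, rose by 0.26 (adjusted p = 0.021), and the tight junction gene Cldn5, named after its values were seen, changed by -1.28 (adjusted p = 0.0137). RNA of other cells was present as well. On every control array the enterocyte, mural, pan-epithelial and T and NK cell marker means were higher than on any knockout array. The changes of the macrophage (0.14) and the B and plasma cell (0.25) marker means were positive. The mean of 14 enterocyte markers lay between 5.24 and 5.62 on the knockout arrays and at 7.08 in control 1, 8.60 in control 3 and higher still in control 2 (13 of the 14 fell), with Fabp2 and Fabp1 the brightest. The mean of 12 mural cell markers lay between 7.72 and 8.06 in the knockout and between 8.41 and 8.79 in the control (6 of 12 fell), with Rgs5 and Acta2 the brightest. The same means were 4.98 to 5.31 and 5.46 to 7.02 for pan-epithelial markers (0 of 7 passed limma, 6 at an unadjusted p of 0.05; brightest Krt8 and Krt19), and 5.97 to 6.58 and 6.46 to 6.85 for fibroblast markers (1 of 6 fell, Col1a2; next brightest Dcn). T and NK cell markers lay at 4.44 to 4.81 in the knockout and 5.11 to 6.07 in the control (0 of 7 passed limma, 5 at an unadjusted p of 0.05; brightest Nkg7 and Gzma). Macrophage markers (5.90 to 6.36 and 5.70 to 6.15; 0 of 8 passed limma and 0 at an unadjusted p of 0.05; brightest Cd68 and C1qb), B and plasma cell markers (7.01 to 7.81 and 6.95 to 7.24; 0 of 5 passed limma, 1 at an unadjusted p of 0.05; brightest Ighm and Jchain) and enteric glia markers (4.78 to 5.12 and 5.06 to 5.39; 0 of 4 passed limma, 1 at an unadjusted p of 0.05; brightest Foxd3 and Sox10) had overlapping ranges. In bulk RNA, fewer cells of a type and less RNA per cell cannot be told apart, and the part of these other cells in the results on the VEGF family was not tested, except where a value below bears on it.

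No ligand gene passed: 0 of the 5 were called by limma, and 1, Vegfb, had an unadjusted p under 0.05. Among all genes tested, 2.61% passed and 16.4% had an unadjusted p under 0.05, so these counts do not set the ligands apart. Vegfa, the main angiogenic ligand, was at 6.73, 6.41 and 7.28 on knockout arrays 1 to 3 and at 7.44, 6.89 and 6.98 on control arrays 1 to 3. The groups overlapped, since knockout 3 lay above controls 2 and 3. The means were 6.81 ± 0.44 and 7.10 ± 0.29, a change of -0.30 ± 0.23 (adjusted p = 0.583) whose 95% interval ran from -0.82 to 0.22, so a fall to 0.568 of the control level and a rise of 1.17-fold both lay within it. The change was -0.097 without knockout 2, -0.13 without control 1 and -0.53 without knockout 3, where the unadjusted p was 0.0299 (adjusted p = 0.311), and it was -1.26 with the enterocyte marker mean as a covariate (adjusted p = 0.595).

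Vegfb, a ligand of VEGFR1 tied mainly to heart and fat, was at 7.51, 7.75 and 7.68 in the knockout and at 7.98, 7.95 and 7.86 in the control. Every knockout array lay below every control array, with a gap of 0.10 between the nearest pair, and 12.3% of all genes had their groups apart in this direction. The change was -0.28 ± 0.11, with an interval from -0.52 to -0.038 and an unadjusted p of 0.0277 that did not pass over all genes (adjusted p = 0.229). The enterocyte and mural marker means were also lower on every knockout array than on any control array. With the enterocyte marker mean as a covariate the change was -0.31 ± 0.30 (adjusted p = 0.897). With the mural marker mean it was -0.33 ± 0.28 (adjusted p = 0.997). The part of other cells in the values of Vegfb was not tested.

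The ligands of VEGFR3 are the lymphangiogenic factors VEGF-C and VEGF-D. Vegfc was at 9.53, 9.35 and 9.65 in the knockout and at 9.82, 9.40 and 9.17 in the control, so that the highest and the lowest of the 6 values were both control arrays. Its change of 0.049 ± 0.15 (adjusted p = 0.916) had an interval from -0.30 to 0.40 and turned to -0.30 against control 1 alone, to -0.021 without knockout 3 and to -0.096 without control 3. Vegfd was dim, at 5.53, 4.67 and 5.37 in the knockout and 4.94, 4.54 and 4.83 in the control. Knockout 2 lay within the control range and the other knockout arrays above it, and the change of 0.42 ± 0.23 did not pass (adjusted p = 0.416, interval -0.10 to 0.94). Leaving out knockout 2 gave 0.68 and leaving out knockout 1 gave 0.25, with adjusted p-values of 0.11 and 0.7.

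Pgf, the gene of placental growth factor, a ligand of VEGFR1, was the other dim member. It was at 4.34, 4.64 and 4.59 in the knockout and at 5.76, 4.57 and 4.53 in the control. Control 1 stood apart, and the other controls lay among the knockout arrays. The change was -0.43 ± 0.30 over all arrays (adjusted p = 0.542) and -0.027 without control 1. Control 1 also had the highest mural marker mean, 8.79, and the highest fibroblast marker mean, 6.85. It held the highest value of Vegfa and Vegfc too. Vegfd and Pgf were below a stricter background level of 6.16, the 99th percentile of the same receptor genes, on all 6 arrays.

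**Figure D2:**
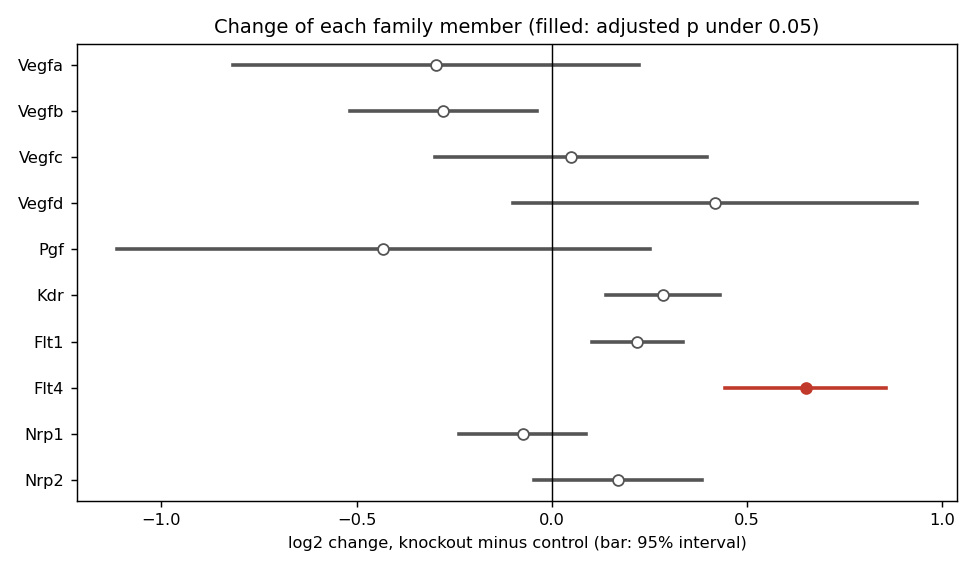
Log2 change of each member, knockout minus control, over 3 arrays a group, with bars for the 95% interval from limma and a filled point where the adjusted p is under 0.05. Flt4 is the 1 filled point, the intervals of Kdr, Flt1 and Vegfb also lie clear of 0, and those of Pgf, Vegfa and Vegfd are the widest.

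All 3 receptor genes were higher on every knockout array than on any control array, and 1 of them passed. Groups lay apart with the knockout higher for 9.79% of all genes, and 1.13% passed as higher. Flt4, the gene of VEGFR3, was at 8.77, 8.76 and 8.76 on knockout arrays 1 to 3 and at 7.99, 8.17 and 8.18 on control arrays 1 to 3. The knockout arrays differed by an SD of 0.0065, against 0.11 in the control, and the nearest arrays of the groups were 0.58 apart. Flt4 thus rose 1.57-fold, with an interval from 1.36-fold to 1.81-fold (log2 change 0.65 ± 0.091, adjusted p = 0.0104).

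Kdr, the gene of VEGFR2, was at 11.41, 11.25 and 11.47 in the knockout and at 11.12, 11.09 and 11.06 in the control. Its control arrays were the closer group (SD 0.029, against 0.11 in the knockout), and the nearest arrays of the groups were 0.13 apart. The change was 1.22-fold, with an interval from 1.10-fold to 1.35-fold, and its adjusted p of 0.0549 missed the threshold (0.28 ± 0.064). Flt1, the gene of VEGFR1, was at 11.59, 11.53 and 11.56 in the knockout and at 11.36, 11.27 and 11.39 in the control, again with no overlap and with 0.14 between the nearest arrays. It changed 1.16-fold, with an interval from 1.07-fold to 1.26-fold, and likewise missed the threshold (0.22 ± 0.052, adjusted p = 0.0642). Among the 8075 genes above the stricter background level both passed, with adjusted p-values of 0.0345 for Kdr and 0.0415 for Flt1, where fewer genes were adjusted over. Without the variance trend neither did, at adjusted p-values of 0.249 for Kdr and 0.339 for Flt1, and the unadjusted p of Flt1 was then 0.0574.

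Flt4 no longer passed without knockout 3 (0.65 ± 0.11, adjusted p = 0.0546), and leaving out any other single array kept it. Kdr passed without knockout 2, the lowest of its knockout arrays (0.35 ± 0.057, adjusted p = 0.0396). Control 1 had the lowest enterocyte marker mean of the controls, the highest mural marker mean and the lowest Flt4. Against control 1 alone, the changes were 0.77 for Flt4, 0.26 for Kdr and 0.20 for Flt1. That fit takes its spread from the knockout arrays, the lone control being assumed to vary like them, so its adjusted p for Flt4 (0.0782) says nothing on the call. With the enterocyte marker mean as a covariate over all arrays, Flt4 was at 0.93 ± 0.23 (adjusted p = 0.338). With the mural marker mean instead it was at 0.47 ± 0.23 (adjusted p = 0.942). When each array was shifted to the same mean of pan-endothelial markers, the 3 changes were 0.70, 0.33 and 0.27, and Flt4 remained the 1 that passed. That mean changed by -0.048 and includes Cldn5 (-1.28), while the median change of the 18 markers was 0.0030. The larger values after the shift thus depend on which markers are in the mean.

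**Figure D3:**
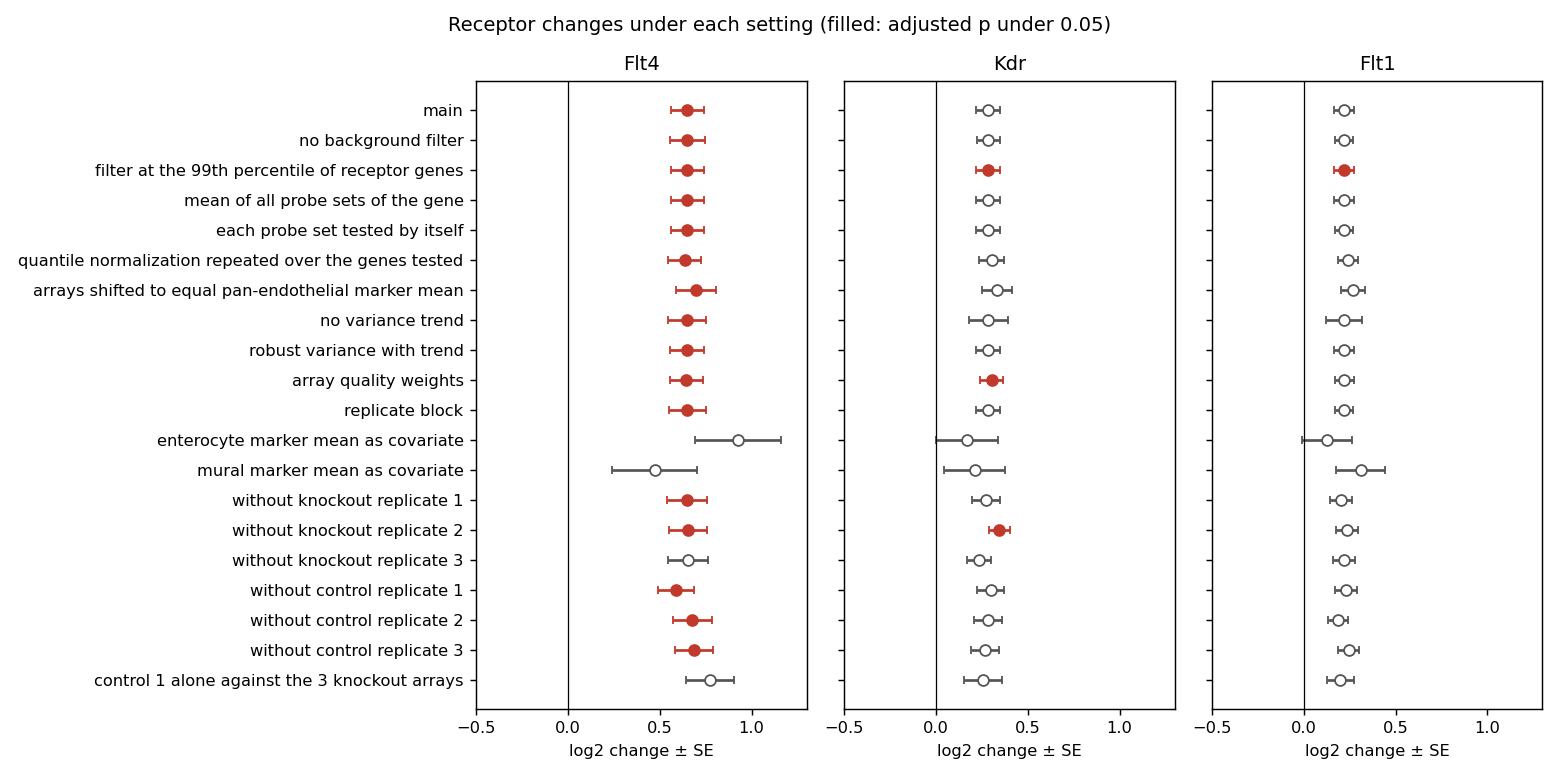
Log2 change of Flt4, Kdr and Flt1 with its standard error under each processing setting, filled where the adjusted p is under 0.05. All changes lie above 0; Flt4 is unfilled with the enterocyte or mural marker mean as a covariate, without knockout 3 and against control 1 alone.

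Whether members changed unequally within the arrays was asked of 4 pairs, with exact two-sided permutation tests over arrays, in which 3 arrays against 3 cannot give a p below 0.1. The change of Flt4 exceeded that of Kdr by 0.37 ± 0.10, with no overlap between the groups (exact permutation p = 0.1, the smallest possible, and 0.2 after adjustment over the 4 pairs). Kdr and Flt1 differed in their changes by 0.065 ± 0.071 (exact permutation p = 0.5, adjusted 0.5). The change of Vegfa minus that of Kdr was -0.58 ± 0.25, with overlapping groups (exact permutation p = 0.2, adjusted 0.267).

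Promoters of the 3 receptor genes are shown because these were the members with all knockout arrays above all controls. Each is the stretch from 250 bases before to 50 bases after the annotated start, from RefSeq on the GRCm38.p6 build, on the strand of the gene. Kdr is at chr5:75978406-75978705 on the minus strand, Flt1 at chr5:147725962-147726261 on the minus strand and Flt4 at chr11:49609429-49609728 on the plus strand. Capitals mark matches, on either strand, to AGGAAG (of the type bound by ETS factors, which are active in endothelium), ACGTG (the core bound by hypoxia-inducible factors) or TATAAA (the TATA box), none of which overlaps another in these windows.
Kdr: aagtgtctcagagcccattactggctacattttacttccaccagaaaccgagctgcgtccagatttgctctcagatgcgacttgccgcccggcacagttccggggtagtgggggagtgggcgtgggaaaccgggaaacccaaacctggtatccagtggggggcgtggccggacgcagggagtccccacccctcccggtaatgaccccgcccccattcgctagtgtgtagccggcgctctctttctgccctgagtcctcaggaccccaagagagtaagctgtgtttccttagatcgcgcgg
Flt1: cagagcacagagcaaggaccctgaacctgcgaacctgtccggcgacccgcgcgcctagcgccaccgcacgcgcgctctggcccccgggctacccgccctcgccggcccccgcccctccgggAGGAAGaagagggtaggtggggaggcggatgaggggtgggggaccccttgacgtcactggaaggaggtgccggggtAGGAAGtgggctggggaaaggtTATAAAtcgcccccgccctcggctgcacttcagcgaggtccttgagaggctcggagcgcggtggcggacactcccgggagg
Flt4: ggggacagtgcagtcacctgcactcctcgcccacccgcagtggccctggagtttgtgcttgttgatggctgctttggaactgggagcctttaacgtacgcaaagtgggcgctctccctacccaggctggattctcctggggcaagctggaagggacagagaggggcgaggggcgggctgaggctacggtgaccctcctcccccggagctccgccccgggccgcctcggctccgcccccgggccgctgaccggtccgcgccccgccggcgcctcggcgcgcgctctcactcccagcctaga

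The Flt1 window held AGGAAG beginning 129 and 53 bases before the start and TATAAA beginning 31 bases before it, and the Kdr and Flt4 windows held none of these 3 words. The windows were GC-rich, at 60.7% for Kdr, 70.7% for Flt1 and 70.3% for Flt4. All 10 members had at least 1 promoter in the table, 12 in all, Vegfa and Pgf having 2 each. Outside the receptors, the Nrp1 window held AGGAAG, the Vegfd window TATAAA and the second Vegfa window ACGTG. Over 32851 promoters of the same length, 35.4% held AGGAAG, 19.6% ACGTG and 13.6% TATAAA. The receptor genes thus share none of the 3 words in these windows.

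Flt4 is also a lymphatic gene, so its values were set beside the 5 of 8 listed lymphatic markers that were above background. Lyve1, a hyaluronan receptor of lymphatic endothelium and some macrophages, rose 2.19-fold (1.13 ± 0.23, adjusted p = 0.0406), with 7.13, 7.48 and 7.93 in the knockout and 6.02, 6.42 and 6.72 in the control. Prox1, the transcription factor that sets lymphatic identity, was near background at 4.06, 4.88 and 4.33 in the knockout and 4.04, 4.28 and 4.77 in the control (0.056 ± 0.25, adjusted p = 0.94). Pdpn, which encodes the gp38 that the sort excluded, was no higher in the knockout, with means of 5.11 and 5.42.

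Mmrn1, a matrix protein gene of lymphatic endothelium, ran from 3.72 to 6.42 in the knockout and from 3.89 to 5.45 in the control, and Reln, also of lymphatic endothelium, from 4.41 to 5.43 and from 4.65 to 4.78. Both overlapped between the groups. Their knockout values were highest in knockout 3 and lowest in knockout 2. The other markers were ordered otherwise, Lyve1 being lowest in knockout 1, Prox1 highest in knockout 2 and Pdpn highest in knockout 1. Whether lymphatic cells had a part in the rise of Flt4 was not tested. Of the 5 markers 1 rose, where 1.13% of all genes rose, and the median change was 0.18, beside -0.017 over all genes. The marker mean was 5.31, 5.11 and 5.84 in the knockout and 5.12, 4.93 and 5.38 in the control.

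**Figure D4:**
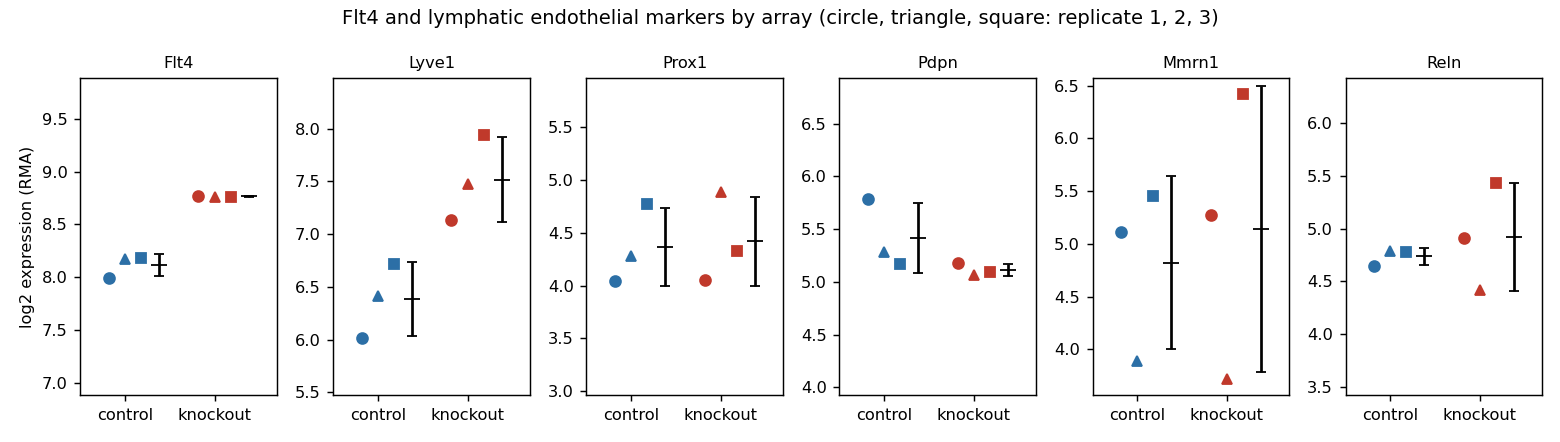
Log2 expression of Flt4 and 5 lymphatic endothelial markers on each array, with the group mean and SD; every vertical axis spans the same number of log2 units. Flt4 and Lyve1 have all knockout arrays above all controls, as do 9.79% of all genes, while Prox1, Pdpn, Mmrn1 and Reln overlap.

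Beyond the family, the 3 genes whose pattern over the 6 arrays lay closest to that of Flt4 were Igfbp3, Acer2 and Vwa1. They were ranked over 13526 genes by the root mean square difference in log2 values, each gene being centred on its own mean, and this measure is a description. Igfbp3, which encodes an IGF-binding protein, differed from Flt4 by 0.037, with changes of 0.65 for both genes. Acer2, a ceramidase gene, differed by 0.0655 and Vwa1, a matrix protein gene, by 0.0685, with changes of 0.67 and 0.55.

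The neuropilin genes did not pass limma, with 0 of 2 at an unadjusted p of 0.05. Among all genes tested, 2.61% passed and 16.4% had an unadjusted p under 0.05. Nrp1, the co-receptor for VEGF-A on blood endothelium, was at 10.95, 10.71 and 10.77 in the knockout and at 10.88, 10.83 and 10.94 in the control. The groups overlapped, and the change of -0.075 ± 0.072 (adjusted p = 0.67) had an interval from 0.848 to 1.06 times the control level. Nrp2, the neuropilin that pairs with VEGFR3 in lymphatic and venous endothelium, was at 8.56, 8.64 and 8.44 in the knockout and at 8.29, 8.39 and 8.45 in the control. Knockout 3 lay just below control 3 and above the other controls, and the change was 0.17 ± 0.095 (adjusted p = 0.431), from 0.969 to 1.31 times the control level. The change of Nrp1 lay below that of Nrp2, with a difference of -0.24 ± 0.11 and no overlap between the groups (exact permutation p = 0.1, the smallest possible, and 0.2 after adjustment over the 4 pairs).

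Genes that act with the receptors and neuropilins were described from lists, whose members were chosen with results of these data already known. Of 24 modulators of VEGF receptors, 3 rose and 0 fell, where 1.13% of all genes rose and 1.48% fell. An unadjusted p under 0.05 was found for 9 of them, against 16.4% of all genes, and their median change was 0.081. Plxna2, a plexin that signals with neuropilins for semaphorins, was at 9.57, 9.69 and 9.92 in the knockout and 8.90, 8.84 and 9.05 in the control, a rise of 1.74-fold (adjusted p = 0.00864). Mcam, the gene of CD146, a co-receptor of VEGFR2, rose 1.43-fold (0.51 ± 0.074, adjusted p = 0.0116). Itgb3, the beta subunit of an integrin that associates with VEGFR2, rose 1.82-fold (0.86 ± 0.14, adjusted p = 0.0193).

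The class 3 and 4 semaphorin list had 5 of 8 members above background, with a median change of 0.15. Of these 5, 1 rose and 0 fell, where 1.13% of all genes rose and 1.48% fell. Sema3f, a ligand of Nrp2 that repels endothelial cells, was the one that rose, with 10.65, 10.85 and 10.81 in the knockout and 9.52, 9.64 and 9.48 in the control (2.34-fold, adjusted p = 0.000346). Of the 8 genes that process VEGF-C and VEGF-D, 5 were above background. None of these passed limma, and the median change was 0.15. An unadjusted p under 0.05 was found for 1 of them, against 16.4% of all genes. Pcsk5, a proprotein convertase gene, was lower on every knockout array (-0.50 ± 0.14, adjusted p = 0.101) and Adamts14, a procollagen protease gene, was at 0.50 ± 0.23 (adjusted p = 0.313).

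Downstream, 38 genes of VEGF signal transduction had a median change of -0.031, and 0 passed limma. An unadjusted p under 0.05 was found for 9 of them, against 16.4% of all genes. The smallest p-values belonged to Fyn, a Src family kinase (0.44 ± 0.11, adjusted p = 0.0723), and Nos3, the endothelial nitric oxide synthase (0.38 ± 0.11, adjusted p = 0.111). Both were higher on every knockout array than on any control, as were 9.79% of all genes. Of the 9 genes at an unadjusted p of 0.05, 4 were higher and 5 lower, the lower ones, named after their values were seen, being Gab1 (-0.41), Prkca (-0.53), Prkcb (-0.40), Hspb1 (-0.39) and Casp9 (-0.30). Hypoxia-inducible factors, which govern Vegfa transcription, and their regulators had a median change of 0.13 over 8 genes, and 0 passed limma. An unadjusted p under 0.05 was found for 3 of these 8, again beside 16.4% of all genes. Egln3, an oxygen-sensing prolyl hydroxylase that is itself a hypoxia target, was lower at -1.28 ± 0.34 (adjusted p = 0.0868), with 4.62, 3.83 and 5.01 in the knockout and 5.16, 5.98 and 6.18 in the control. Control 1 was the lowest of the controls for Egln3, as it was for the enterocyte marker mean. Egln1, the main prolyl hydroxylase of these factors, was at -0.36 ± 0.13 (adjusted p = 0.223). The third was Hif1a, a factor gene named after its values were seen, at 0.27 ± 0.10 (adjusted p = 0.231) and higher on every knockout array.

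Among 30 genes listed as VEGF-responsive in endothelium, several of which were already known to have risen in these data when the list was drawn up, 9 rose, 1 fell and 20 did not pass, where 2.61% of all genes passed. Their median change was 0.15. The 6 with the smallest p were Apln, Plaur, Igfbp3, Stc1, Spry4 and Inhbb. Apln, the apelin gene of sprouting cells, changed by 2.51, the urokinase receptor gene Plaur by 1.55, the activin subunit gene Inhbb by 1.48 and Igfbp3 by 0.65. Stc1, a secreted glycoprotein gene, was at 9.01, 8.90 and 8.81 in the knockout and 7.55, 7.82 and 7.41 in the control, a rise of 2.49-fold (adjusted p = 0.00216). Spry4, a feedback inhibitor of receptor tyrosine kinase signalling, was at 10.38, 10.58 and 10.44 in the knockout and 9.88, 9.85 and 9.84 in the control, a rise of 1.53-fold (adjusted p = 0.00478).

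The others that rose, named after their values were seen, were Nid2, Angpt2 and Adamts1, by 0.89, 0.79 and 0.64, and the one that fell was Egr1, an immediate early factor (adjusted p = 0.0406). No gene of the list passed as lower with the replicate number as a block, after repeated quantile normalization, without the variance trend, without control 3 or without any 1 of the knockout arrays. Of the best-known early targets, also chosen after their values were seen, Nr4a1 had an interval from -0.46 to 0.46 around a change near 0, Egr3 at -0.41 ± 0.24 and Rcan1, an inhibitor of calcineurin, at 0.63 ± 0.30, and none of the 3 passed limma (adjusted p from 0.338 to 1). Dll4, the Notch ligand of tip cells, was at 0.057 ± 0.099 and Esm1, a tip-cell proteoglycan gene, at 0.39 ± 0.14 (adjusted p = 0.828 and 0.196). The count of 10 called genes was 6 without knockout 3 and 6 without control 3.

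**Figure D5:**
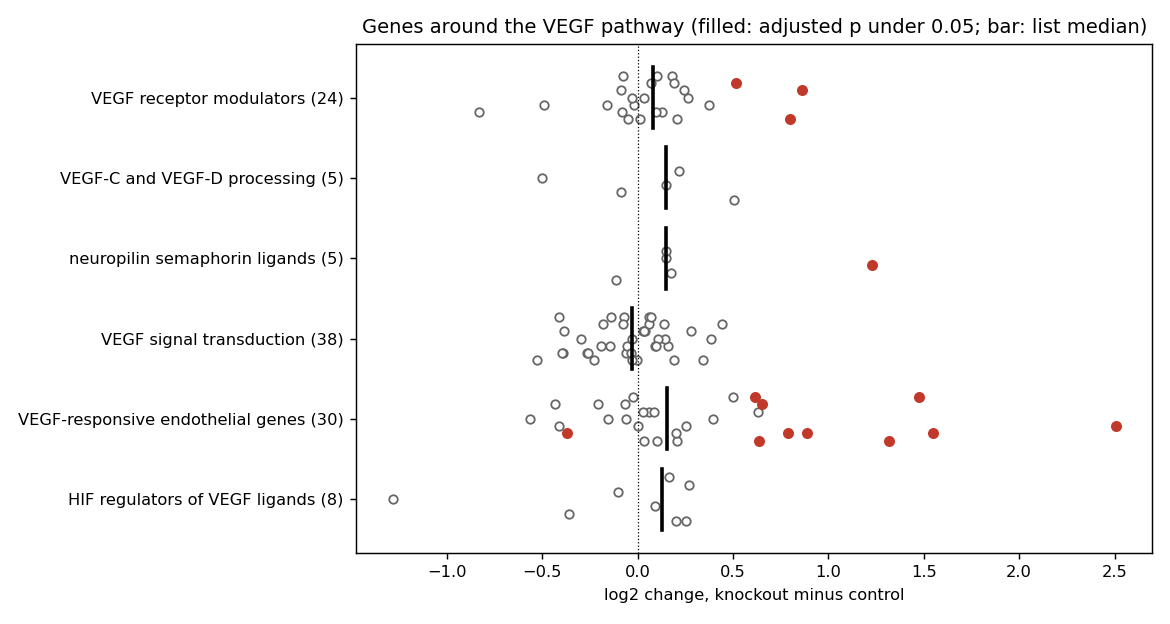
Log2 change of each gene of 6 lists around the VEGF pathway, with the number of genes above background in brackets, filled where the adjusted p is under 0.05 and with a bar at the list median. The filled points lie in the modulators (3), the semaphorins (1) and the VEGF-responsive genes (10, of which 9 lie above 0).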

How the data were processed

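Expression was measured on 6 arrays of 1 biological replicate each, 3 knockout and 3 control. The deposited table holds log2 values for 41345 probe sets, made by the authors with RMA in oligo, per the submitters' processing notes; RMA corrects background, applies quantile normalization and summarises probes, and versions are not given in the sources used here. Arrays have no read depth, and their number limits the precision; array medians were 4.77 to 4.81.

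The platform annotation gave the gene names, brought up to date by gene identifier. Of them 23525 had 1 symbol, 1810 several and 16010 none in the annotation, and the last 2 classes were left out. The probe set with the highest mean stood for a gene. Genes were tested when this mean exceeded the 90th percentile of 1433 receptor genes of smell and taste (Olfr, Or, Vmn, Tas). limma 3.58.1 in R 4.3.3 (lmFit, eBayes with a variance trend, no covariate) was fitted over 15288 genes, two-sided, with Benjamini-Hochberg adjustment over all of them. Permutation tests used scipy 1.17.1 and plots matplotlib 3.10.9. The fit was also run on simulated data with independent normal noise for each gene. Such data hold no differing share of other cells and no deviating array, so they cannot speak to either.

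Named genes were all members; of each pathway list all called genes up to 6, or, where none was called, the 2 lowest p-values; in each cell type list the 2 brightest; and for each called member the 3 genes of nearest pattern, leaving out predicted genes, small RNAs and receptor genes. Members and lists were chosen with earlier results of these data known. Alternatives covered the filter, probe sets, normalization, variance model, threshold, array weights, covariates, the replicate number as a block and arrays left out.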

Additional observations from a re-analysis of the deposited data

How the results depend on the processing

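Over the 10 members and up to 20 alternatives each, 181 of 198 values kept their direction and their side of the threshold. The alternatives of filter, probe sets and variance model could not move the change of a member, so the count says little on stability. For members other than Flt4, keeping their side meant staying uncalled. Flt4 kept its call in 16 of its 20 alternatives. Flt4 lost its call with the enterocyte mean (0.93) or the mural mean (0.47) as a covariate, and lay between 0.59 and 0.68 with single arrays left out. Those covariates differ between the groups on every array, and with them 3 (enterocyte) and 2 (mural) genes passed, against 399; of the VEGF-responsive genes 0 passed limma with either. Against control 1 alone it was at 0.77 and did not pass, but there the spread comes from the knockout arrays only, so neither this nor the counts of that setting below bear on stability. Kdr passed with the stricter filter (0.28) and with array weights (0.30), and Kdr (0.28) and Flt1 (0.22) at a threshold of 0.1; leaving out single arrays gave Kdr 0.24 to 0.35. Neither passed without the variance trend (adjusted p = 0.249 and 0.339). Flt1 passed with the stricter filter (0.22). Vegfc turned to -0.77 with the enterocyte covariate and -0.30 against control 1 alone, and ran from -0.096 to 0.23 with single arrays left out. Vegfd turned to -0.31 with the enterocyte covariate, and Pgf to 0.66 and Nrp1 to 0.066 with the mural covariate. With the enterocyte covariate Pgf was instead at -2.21 ± 0.47 (adjusted p = 0.233). With single arrays left out, Vegfa ran from -0.53 to -0.097 and Vegfd from 0.25 to 0.68. The cause of these changes was not tested. The count of all genes passing, 399, was 139 without the variance trend, 52 against control 1 alone, 768 at a threshold of 0.1 and 91 to 379 with single arrays left out. The VEGF-responsive count, tried under these alternatives after seeing the data, was 6 without the trend, 5 against control 1 alone and 6 to 10 with single arrays left out. The labels do not say whether the replicate numbers pair the samples. Deviations of same-numbered arrays correlated at -0.020, -0.0077 and 0.039, and those of differently numbered arrays at -0.032 to 0.034. Such correlations cannot show whether mice were paired by litter or day. With the number as a block, 394 genes passed and Flt4 kept its call (0.65, adjusted p = 0.0204). Vegfd and Pgf gave no value under the stricter filter.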
